A study of Medicago sativa with 3 samples.

Results

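The alfalfa transcripts of a grazing-tolerant population were compared between plants grazed by sheep and plants kept from grazing, with 1 RNA library on each side. A transcript was taken as one of alfalfa when both its best protein match and its best nucleotide match in the deposited annotation named a legume (Medicago, Glycine, Lotus, Pisum, Cicer or Trifolium) and when it held at least 100 fragments over both libraries. This left 27663 of the 95646 assembled transcripts, out of 52669 with legume names in both matches, and they belonged to 19136 assembly clusters or single transcripts. The tolerant grazed library came from population MF200401 of Medicago sativa ssp. falcata, yellow-flowered alfalfa, under continuous sheep grazing, about a week after the animals had been taken off. The tolerant ungrazed library came from vegetative propagules of the same plants in a fenced block, whose shoots were cut back to a like height when the sheep left. In each case leaf, stem and root RNA of all plants was pooled into 1 whole-plant bulk. Grazing and block therefore cannot be told apart, no plant was measured on its own, and both sides had lost shoot tissue. A lower level in such a bulk can mean fewer cells of a type or less RNA per cell, and these cannot be told apart.

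Alfalfa regrows after defoliation from crown and stem buds, and until new leaves export sugar the regrowth draws on carbon and nitrogen stored in the root. Wounded legume tissue makes jasmonate, a hormone formed from membrane lipids by lipoxygenases, which turns on protease inhibitors and other proteins that act against herbivores. Where oxygen runs short, plant cells break down sucrose through sucrose synthase and glycolysis and turn pyruvate into ethanol through pyruvate decarboxylase and alcohol dehydrogenase. Immune receptors with a nucleotide-binding site and leucine-rich repeats (NBS-LRR), of which legumes have many with a TIR domain, recognise pathogen effectors inside the cell.

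Levels are given as FPKM, fragment counts scaled to the length of the transcript in kilobases and to the aligned fragments of the library, and as the log2 ratio of FPKM, tolerant grazed over tolerant ungrazed. A transcript is called higher or lower when it lay 2-fold or more apart, and brackets after a log2 ratio hold its exact Clopper-Pearson 95% interval, which covers counting error only. With 1 library a side no test between the conditions was possible and no p-value is given. A ratio against a library with 3 fragments or fewer was computed against that floor and is a lower bound. The libraries held 22.7 M (tolerant grazed) and 22.8 M (tolerant ungrazed) aligned fragments, of which the alfalfa transcripts took 78.3% and 78.1%. Contigs of 1 cluster share sequence and compete for uniquely aligned fragments, so the ratio of a single contig is uncertain where its cluster as a whole moved otherwise, and the cluster's own log2 ratio is then given beside it.

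Most alfalfa transcripts had like levels in the tolerant grazed and the tolerant ungrazed library. The median level was 8.53 FPKM in the grazed and 8.04 FPKM in the ungrazed library, and 19620 transcripts (70.9%) lay within 1.5-fold. Higher after grazing were 2072 transcripts (7.49%) and lower were 1392 (5.03%). Over all 33061 transcripts of the table with as many fragments, 7.76% were higher and 9.56% lower. The larger share of lower calls there came from transcripts without legume names in both matches, of which 32.8% were lower, so the alfalfa set leans to higher calls where the table as a whole leans to lower ones. The median log2 ratio of the alfalfa transcripts was 0.10, against 0.07 over the whole table, and the quartiles were −0.23 and 0.44. At 8-fold or more, 174 transcripts were higher and 143 lower. The balance of calls differed with the level: among the 932 transcripts with a mean of 100 FPKM or more, 5.79% were higher and 10.9% lower, whereas below 10 FPKM 8.47% were higher and 4.19% lower. The plot of ratio against level shows both groups.

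**Figure D1:**
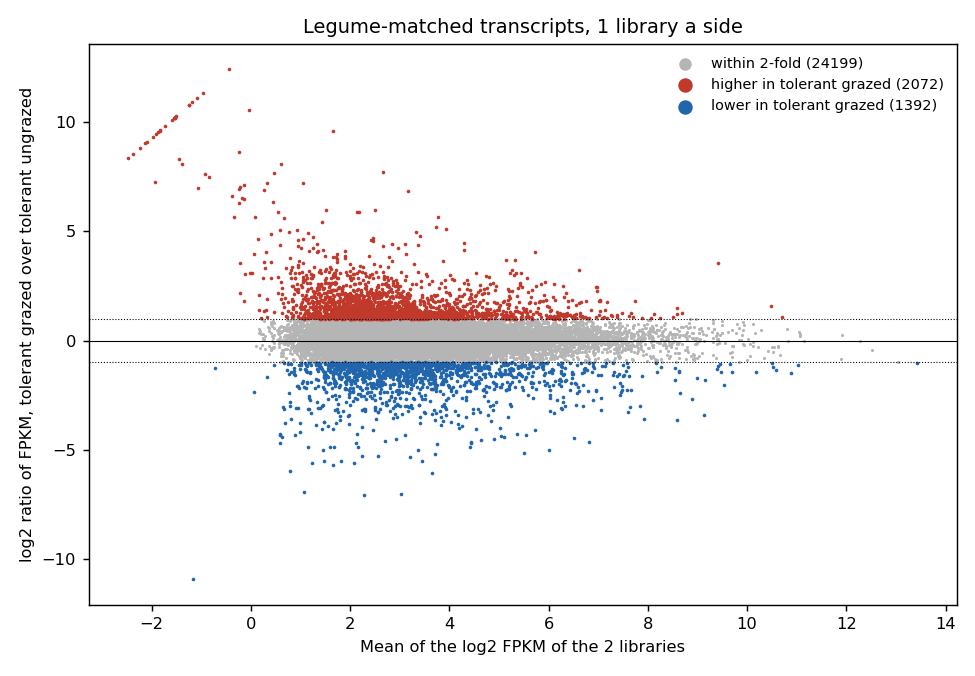
Each point is 1 alfalfa transcript, with the mean of its log2 FPKM in both tolerant libraries on the horizontal axis and its log2 ratio, tolerant grazed over tolerant ungrazed, on the vertical axis (0.01 in place of an FPKM of 0). Red points (2072) were 2-fold or more higher in the grazed library, blue points (1392) 2-fold or more lower, and grey points lay within 2-fold. The diagonal string at the upper left holds contigs without a fragment in the ungrazed library.

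The bulks carried RNA of both shoot and root. Leaf markers were abundant, and chlorophyll a/b-binding proteins summed to 4775 FPKM in the grazed and 2852 FPKM in the ungrazed library (log2 ratio 0.74), while the Rubisco small subunit (log2 ratio −0.21) and Rubisco activase (−0.14) leaned the other way. Among root-type markers, casparian strip membrane proteins and their relatives had a summed log2 ratio of 0.04 and nitrate transporters of −0.43. No transcript with legume names in both matches was named leghemoglobin or nodule-specific cysteine-rich protein, the defining products of nitrogen-fixing nodules. Floral MADS-box proteins (2 and 9 fragments) were near the floor. The seed marker oleosin had 96 fragments in the grazed and 75 in the ungrazed library. These marker sums moved by less than 2-fold except the floral one, which rests on 9 fragments or fewer a library, and the part that unequal tissue shares had in the results was not tested.

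By the words of their matches, 7589 transcripts fell into 55 function lists. The share of higher calls was largest for genes of cuticle, wax and lipid transfer (44.3%), jasmonate (32.0%) and TIR-type immune receptors (30.8%), against 7.49% of all alfalfa transcripts. The share of lower calls was largest for fermentation enzymes and phytoglobins (50%), protease inhibitors (36.7%) and nodulins (27.6%), against 5.03%, although the protease inhibitors had more higher than lower calls when at least 500 fragments were asked for. Only 3 lists differed 2-fold or more in their summed fragments: fermentation enzymes (log2 ratio −2.36) and starch and sucrose metabolism (−1.01) were lower, and cuticle, wax and lipid transfer genes (1.14) were higher. Starch and sucrose metabolism lay at the threshold, and its summed log2 ratio was −0.91 with levels rescaled to TPM and −0.97 with the list as first written. The sum of the cuticle list leaned on 1 lipid-transfer contig. This contig, CL1815.Contig4, held 38810 of the list's 121749 fragments in grazed and 3277 of its 55696 in ungrazed plants.

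**Figure D2:**
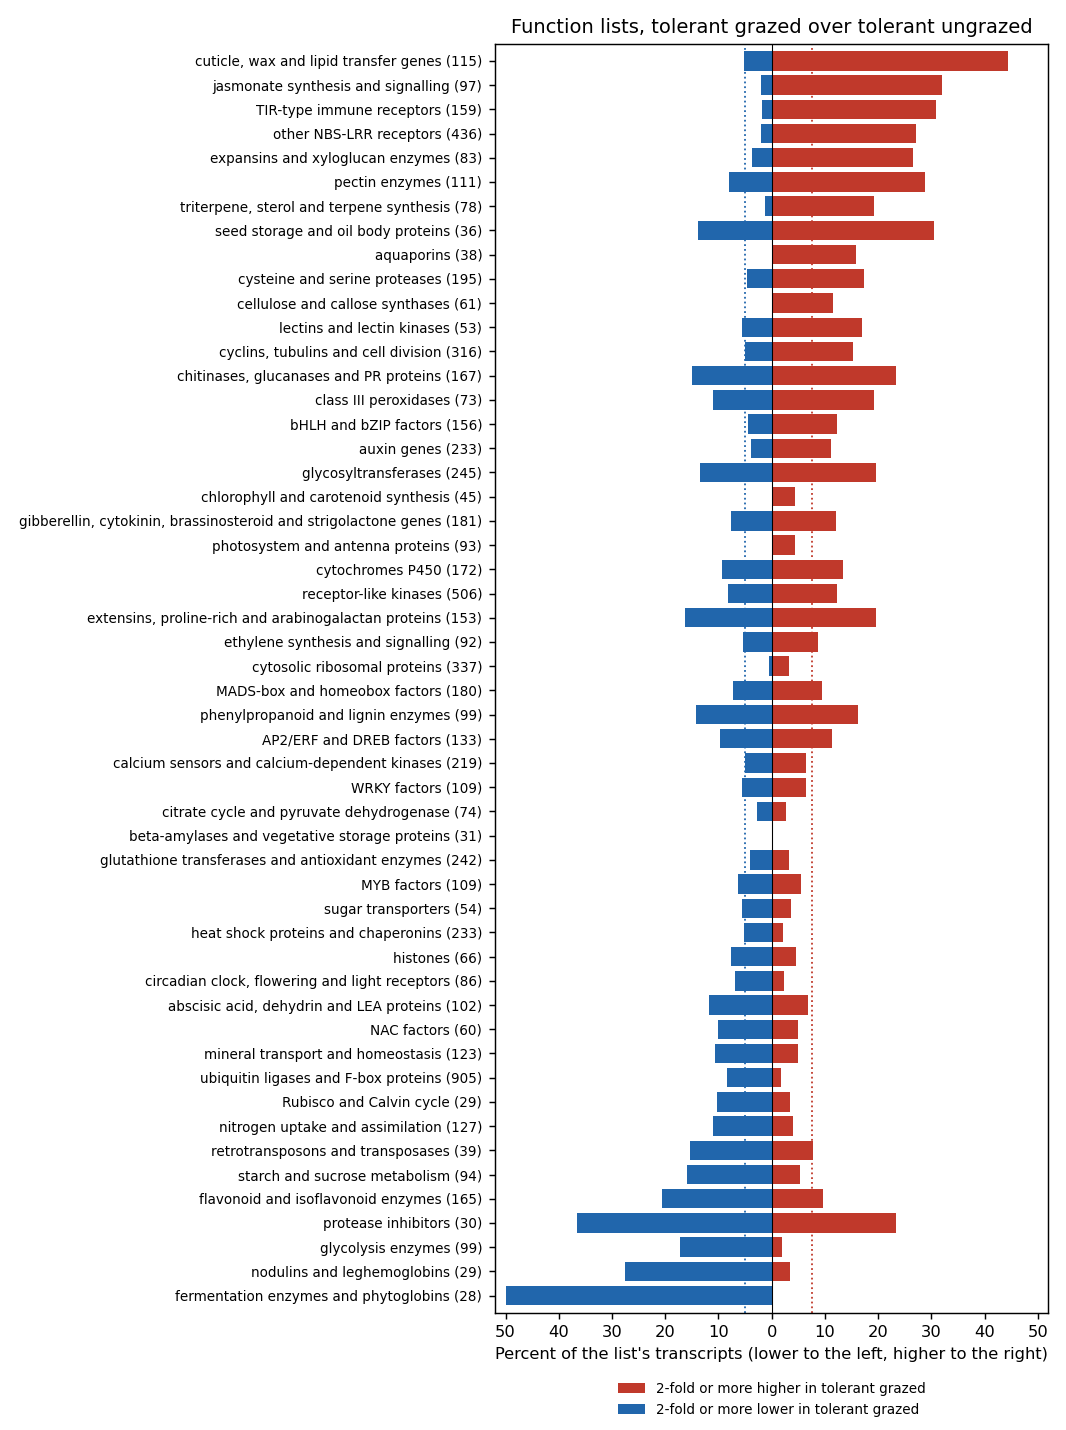
Bars give the percent of each function list's transcripts that were 2-fold or more higher (red, to the right) or lower (blue, to the left) in the tolerant grazed than in the tolerant ungrazed library, for lists of 25 or more transcripts (number in brackets). Dotted lines mark the shares over all alfalfa transcripts, 7.49% higher and 5.03% lower. The lists of cuticle, wax and lipid transfer genes, of jasmonate genes and of immune receptors stand at the top. Fermentation enzymes, with 14 of 28 lower and 0 higher, stand at the bottom.

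Fermentation enzymes and phytoglobins had the largest share of lower calls of the 55 lists, 14 of 28, with a median log2 ratio of −1.17. All 8 pyruvate decarboxylase contigs, the enzyme that splits pyruvate to acetaldehyde, were lower, with log2 ratios from −5.16 to −2.99. Contig CL6015.Contig6 had 7.58 FPKM in grazed plants, against 270.3 FPKM in ungrazed plants (log2 ratio −5.16 [−5.34 to −4.98]). The whole CL6015 cluster had a log2 ratio of −3.37, and the single transcript Unigene25197 of −3.02. Alcohol dehydrogenase, which turns acetaldehyde into ethanol, was lower in 1 cluster only. Its most abundant contig CL1106.Contig1 had 361 FPKM in grazed and 1504 FPKM in ungrazed plants (log2 ratio −2.06 [−2.08 to −2.03]), and CL1106.Contig3 had 189.6 and 1202 FPKM. The remaining alcohol dehydrogenase contigs of 14, class III and alcohol dehydrogenase-like forms among them, had log2 ratios between −0.82 and 0.45. L-lactate dehydrogenase, of the lactate branch, was lower in CL12381.Contig2 (6 fragments in grazed, 123 in ungrazed plants, cluster log2 ratio −3.62) and in CL11716.Contig2 (20.5 against 59.0 FPKM), whereas both D-lactate dehydrogenase contigs lay within 2-fold. The non-symbiotic hemoglobin Unigene24262, of a family that binds oxygen and scavenges nitric oxide, had 53.1 FPKM in grazed and 152 FPKM in ungrazed plants (log2 ratio −1.52 [−1.61 to −1.42]), and Unigene20798 had −0.39.

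Apart from a transcript with no fragment in the grazed library, the lowest ratio belonged to a transcript annotated as 2-aminoethanethiol dioxygenase, the family to which the plant cysteine oxidases belong. In Arabidopsis these enzymes use oxygen to mark ethylene response factors for breakdown and are themselves made at low oxygen. Unigene11152 had 8 fragments in grazed, against 1108 in ungrazed plants (0.414 and 56.8 FPKM, log2 ratio −7.10 [−8.32 to −6.12]). Of the 10 contigs with this name 4 were lower and 0 higher, and the next were Unigene12014 (log2 ratio −4.72), CL8477.Contig1 (−3.08) and Unigene6790 (−1.24).

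Sucrose breakdown and parts of glycolysis were lower as well. Sucrose synthase, which splits sucrose to UDP-glucose and fructose, was lower in 14 of 23 contigs and higher in 3. Its most abundant contig CL1276.Contig1 had 307 FPKM in grazed and 1062 FPKM in ungrazed plants (log2 ratio −1.79 [−1.82 to −1.76]), and CL8834.Contig1 was lowest at −3.19. The higher contigs were low in level, and the largest of these ratios belonged to Unigene25144, with 21.6 against 6.50 FPKM. A cell wall invertase, the other route of sucrose cleavage, was lower in CL1931.Contig1 (20.6 against 97.6 FPKM, log2 ratio −2.24), while a neutral invertase-like transcript, Unigene9205, was higher (1.27) and the remaining invertases lay within 2-fold. Starch synthases, branching enzymes and the like stayed within 2-fold in all 15 contigs (log2 ratios −0.64 to 0.66), as did all 31 contigs named beta-amylase or root vegetative storage protein. The hexose transporter cluster CL2053 was lower, with 46.2 FPKM in grazed and 204 FPKM in ungrazed plants for Contig1 (log2 ratio −2.14 [−2.21 to −2.07]).

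Of 99 glycolysis contigs 17 were lower and 2 higher, and the median log2 ratio was −0.01. Copies of 1 enzyme differed, and the sums over all copies of pyruvate kinase (342 FPKM in grazed, 778 FPKM in ungrazed plants, log2 ratio −1.21) and of aldolase (870.0 and 1806 FPKM, −1.05) were lower, while enolase had a summed log2 ratio of −0.31 and phosphofructokinase of −0.49. Pyruvate kinase CL1168.Contig3, named without a compartment, had 29.3 FPKM in grazed and 208 FPKM in ungrazed plants (log2 ratio −2.83 [−2.91 to −2.74], cluster −2.15), and Unigene24855 had 41.4 and 221 FPKM. Contigs named as chloroplast isozymes, CL13228.Contig2 and CL1661.Contig3, were higher at 1.17 and 1.05, in clusters at 0.47 and 0.99. Fructose-bisphosphate aldolase was lower in 3 contigs of CL10930 (Contig3 242 against 648 FPKM) and close to 0 in both contigs of CL7856 (−0.13 and −0.01). The NADP-dependent glyceraldehyde-3-phosphate dehydrogenase CL4374.Contig2, the non-phosphorylating form, had 4.28 FPKM in grazed and 109 FPKM in ungrazed plants (log2 ratio −4.67), but its cluster had −1.21. The next stage, the citrate cycle with pyruvate dehydrogenase, had 2 higher and 2 lower of 74 contigs and a summed log2 ratio of 0.04.

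**Figure D3:**
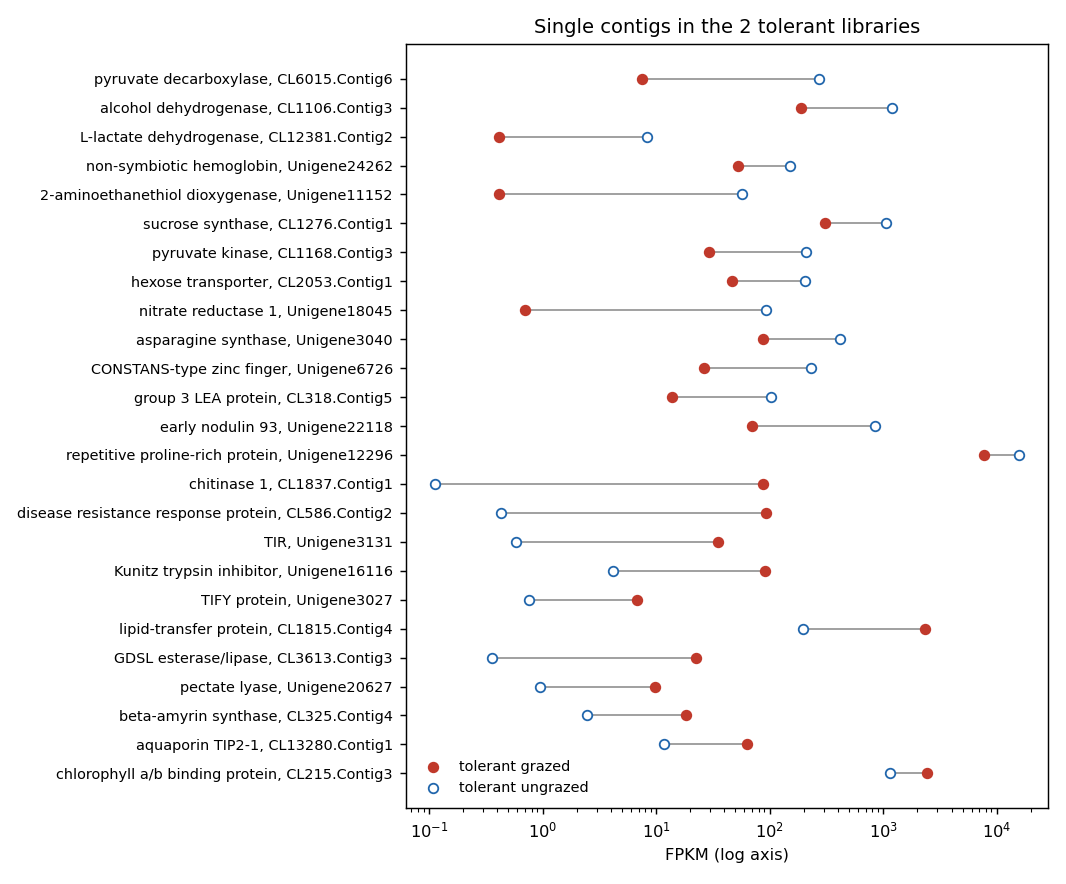
FPKM on a log axis of 25 single contigs in the tolerant grazed (filled red) and the tolerant ungrazed library (open blue), 1 library each. In the upper 14 rows, from pyruvate decarboxylase to a repetitive proline-rich protein, the grazed value lies to the left of the ungrazed one, and in the lower 11 rows, from chitinase 1 to a chlorophyll a/b binding protein, it lies to the right.

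Nitrogen and sulfur enzymes held some of the most strongly lower transcripts. Nitrate reductase 1 (Unigene18045), the enzyme that makes nitrite from nitrate, had 0.704 FPKM in grazed, against 93.7 FPKM in ungrazed plants (47 and 6299 fragments, log2 ratio −7.06 [−7.50 to −6.64]). Another, more abundant nitrate reductase transcript, Unigene16123, had 208 and 339 FPKM (log2 ratio −0.71), and 2 smaller ones, Unigene6788 and Unigene17951, were higher at 1.33 and 1.05. Asparagine synthetase, which makes the main nitrogen transport compound of alfalfa, went both ways: Unigene3040 had 87.0 FPKM in grazed and 416 FPKM in ungrazed plants, Unigene4353 had 117 and 32.6 FPKM, and the most abundant cluster CL5580 had a log2 ratio of 0.72. NADH-dependent glutamate synthase was lower in both of its contigs (−2.12 and −1.98), whereas the ferredoxin-dependent form of leaves had 0.12. All 4 contigs of the thiosulfate sulfurtransferase cluster CL10090, a rhodanese-type sulfur transferase, were lower, and together they had 13.8 FPKM in grazed and 326 FPKM in ungrazed plants. A cysteine desulfurase, Unigene15378, of the enzymes that supply sulfur for iron-sulfur clusters, had 1.61 and 74.1 FPKM (log2 ratio −5.53 [−5.87 to −5.21]).

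Of 102 contigs tied to abscisic acid 12 were lower and 7 higher, an order that turned with levels rescaled to TPM, while the median log2 ratio was 0.30. All 7 group 3 LEA contigs, proteins that protect cells during water loss, were lower, with log2 ratios from −2.91 to −1.64 and summed levels of 118 FPKM in grazed and 586 FPKM in ungrazed plants. Both transcripts of nine-cis-epoxycarotenoid dioxygenase, the entry enzyme of abscisic acid synthesis, were lower (−1.99 and −1.93), and the receptor PYL4 (CL2561.Contig1) was higher, with 46.0 against 11.3 FPKM, in a cluster at 0.65. The most abundant transcript of the list, ABR17 (CL1123.Contig2), had 2427 FPKM in grazed and 1862 FPKM in ungrazed plants, and 1 of 12 dehydrin contigs was lower. A CONSTANS-type zinc finger protein, of a family that times flowering by day length, had 26.2 FPKM in grazed and 229.9 FPKM in ungrazed plants (Unigene6726, log2 ratio −3.13 [−3.27 to −2.99]). Phytochrome-interacting factor 3, a light-signalling factor, was lower in CL2666.Contig3 (−2.32), in a cluster at −1.27.

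Of 29 transcripts named nodulins 8 were lower and 1 higher, and none was a leghemoglobin. Early nodulin 93 (Unigene22118) had 69.6 FPKM in grazed, against 855 FPKM in ungrazed plants (log2 ratio −3.62 [−3.70 to −3.53]). Early nodulin 12A (Unigene43229) had 200.2 and 699.9 FPKM, and root nodule extensin (Unigene423) had 959 and 2429 FPKM. These are proline-rich wall proteins, apart from early nodulin 93, and they were lower together with the most abundant alfalfa transcript of all, a repetitive proline-rich cell wall protein. This transcript, Unigene12296, had 7712 FPKM in grazed and 15798 FPKM in ungrazed plants (log2 ratio −1.03 [−1.05 to −1.02]). The list of extensins, proline-rich and arabinogalactan proteins held 30 higher and 25 lower of 153 contigs, an order that turned when the median ratio was set to 0. Among the higher ones, a putative cell wall protein, CL5898.Contig2, had 45.0 against 0.721 FPKM (cluster log2 ratio 5.18).

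Enzymes of phenolic compounds went both ways, and flavonoid enzymes leaned to lower levels. Of 165 flavonoid and isoflavonoid contigs 34 were lower and 16 higher. Flavonoid 3'-hydroxylase CL6685.Contig1, which adds a hydroxyl group to the B ring, had 4.89 FPKM in grazed and 73.6 FPKM in ungrazed plants (log2 ratio −3.91 [−4.17 to −3.67]). Contigs named for isoflavone or isoflavonoid enzymes, which lead to the legume phytoalexins, were lower in 13 and higher in 1 of 40. A leucoanthocyanidin dioxygenase, of the anthocyanin branch, was higher at low level (Unigene16197, 9.44 against 0.304 FPKM), while the abundant Unigene6200 of that name had 245 and 229 FPKM. Among lignin enzymes a laccase (Unigene26513, log2 ratio −3.31) and 4-coumarate CoA ligase CL3909.Contig2 (−3.23) were lower, and a cinnamyl alcohol dehydrogenase (Unigene18702, 4.45) and a hydroxycinnamoyltransferase (Unigene26732, 4.68) higher, and the counts of 16 higher and 14 lower of 99 turned their order when at least 500 fragments were asked for.

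Ubiquitin ligases formed the largest list and leaned to lower calls. Of 905 contigs 76 (8.40%) were lower and 15 (1.66%) higher, against 5.03% and 7.49% of all alfalfa transcripts. F-box proteins, which choose the target of a ligase, made up 479 of these, 51 lower (10.6%) and 8 higher (1.67%). The F-box/kelch protein CL12683.Contig1 had 0.605 FPKM in grazed and 29.7 FPKM in ungrazed plants (log2 ratio −5.62 [−6.23 to −5.07]), and its partner contig had −5.54. An abundant ligase, a PUB22-like protein (Unigene18704), had 140.1 and 148 FPKM.

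The list of cuticle, wax and lipid transfer genes had the largest share of higher calls, nearly all of them lipid-transfer proteins and GDSL esterases. Names of these families alone do not tell which members serve the cuticle. Of 115 contigs 51 were higher and 6 lower, and the median log2 ratio was 0.81. Non-specific lipid-transfer proteins, small secreted lipid carriers, were higher in 21 and lower in 3 of 41 contigs. The most abundant, CL1815.Contig4, had 2347 FPKM in grazed, against 197 FPKM in ungrazed plants (log2 ratio 3.58 [3.53 to 3.63]), and its cluster had 2.48. GDSL esterases, some of which join cutin monomers, were higher in 29 and lower in 3 of 48 contigs, led by CL3613.Contig2 with 12.2 against 0.152 FPKM in a cluster at 5.15. The 18 ketoacyl-CoA synthase contigs, of wax chain elongation, had a median of 0.56 with none past 2-fold. The remaining 8 contigs of the list had 1 higher and 0 lower and a median of 0.30. A lipid-transfer protein was also among the lowest alfalfa transcripts (CL8661.Contig1, 0.438 against 22.7 FPKM, cluster log2 ratio −4.83).

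Jasmonate genes leaned to higher levels. Of 97 contigs 31 were higher and 2 lower, with a median log2 ratio of 0.82. TIFY proteins, the family of the JAZ repressors that jasmonate itself induces, were higher in 19 of 34 contigs and lower in 0, and summed to 2278 FPKM in grazed and 1223 FPKM in ungrazed plants. Unigene3027 had the largest of these ratios (6.81 against 0.754 FPKM, log2 ratio 3.17 [2.59 to 3.82]). Lipoxygenases, the family of the enzymes that oxidise the fatty acid precursor, were higher in 11 and lower in 0 of 35. Their names alone do not tell which of them serve jasmonate synthesis. The lipoxygenase-9 transcript Unigene44808 had 285 and 196 FPKM (log2 ratio 0.54). Allene oxide synthase, the next enzyme, was higher in Unigene18692 (91.4 against 26.9 FPKM) and lower in Unigene23595 (−1.68). The 15 contigs named oxophytodienoate reductase had 0 higher and 1 lower and a median of −0.12. The lower one, CL11815.Contig3, was named as a 12-oxophytodienoate reductase 1-like form. Here too the names alone do not tell which of them serve jasmonate synthesis.

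Proteins that act against herbivores differed between and within families. Contigs named Kunitz-type trypsin inhibitor, which block digestive proteases, were higher in 6 of 7 contigs and summed to 991 FPKM in grazed and 189 FPKM in ungrazed plants. Unigene16116 was at 91.6 against 4.18 FPKM (log2 ratio 4.45 [4.13 to 4.79]). Contigs named 21 kDa protein or miraculin, which belong to the same family, went both ways, 2 higher and 4 lower of 8. Some of them share a cluster with Kunitz-named contigs, and cluster CL6239, which holds both names, had a log2 ratio of 1.72. Both contigs of CL11897 were among the lowest alfalfa transcripts, with 22 fragments in grazed and 903 in ungrazed plants for Contig1 (log2 ratio −5.35) and 42 and 1560 for the miraculin Contig2 (−5.20). Other inhibitors were lower, among them a cysteine proteinase inhibitor (Unigene22582, 0.896 against 12.2 FPKM) and a trypsin-inhibitor-like protein (Unigene1774, 4.70 against 49.8 FPKM), so the list as a whole, whose summed log2 ratio was 0.41, had 7 higher and 11 lower of 30. Beta-amyrin synthase, the first enzyme of the triterpene saponins of alfalfa, was higher in 3 of 4 contigs of cluster CL325 (Contig4 18.3 against 2.44 FPKM, cluster log2 ratio 1.91). MLP-like proteins, relatives of the major latex proteins, were higher in 6 and lower in 0 of 13 contigs, and CL10550.Contig2 had 97.6 against 1.93 FPKM.

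Chitinases, glucanases and pathogenesis-related proteins were called in both directions, 39 higher and 25 lower of 167. Chitinase 1 (CL1837.Contig1), which cleaves fungal walls, held 2316 fragments in grazed and 3 in ungrazed plants and was at least 778-fold higher, in a cluster with a log2 ratio of 5.69, but it cannot be ranked against contigs with no ungrazed fragment, whose ratios are bounds as well. The most abundant chitinase, CL7264.Contig2, had 983 and 534 FPKM. Contigs named disease resistance response protein went both ways, 9 higher and 5 lower of 24. They had a median log2 ratio of −0.13 and summed to 537 FPKM in grazed and 679 FPKM in ungrazed plants. The highest ratio among them was that of CL586.Contig2, of the dirigent family, with 92.7 FPKM in grazed and 0.431 FPKM in ungrazed plants (log2 ratio 7.75 [6.70 to 9.07]), and its cluster had 3.05. The lowest, CL2935.Contig1, had 7.94 and 76.0 FPKM, in a cluster at 0.08. Of 3 contigs named pathogenesis-related protein 1, a salicylic acid marker in Arabidopsis, 2 were lower and 1 was higher (log2 ratio 1.10). The lowest, CL2198.Contig3, had 44.5 against 401 FPKM in a cluster at −2.14. Of 3 contigs named PR10 2 were lower, in a cluster at −0.80. Polygalacturonase inhibitor proteins, which restrain fungal pectin enzymes, were split as well. CL13294.Contig2 had 172 FPKM in grazed and 1814 FPKM in ungrazed plants, but its cluster had a log2 ratio of −0.78, and Unigene41040 was higher (82.1 against 4.69 FPKM).

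Immune receptor transcripts leaned to higher levels. Of 159 TIR-type contigs 49 were higher and 3 lower (median log2 ratio 0.67), and of 436 other NBS-LRR contigs 118 were higher and 9 lower (median 0.50). The TIR contigs took 0.230% of the fragments in the grazed and 0.130% in the ungrazed library. An abundant TIR protein, Unigene5965, had 96.1 FPKM in grazed, against 47.9 FPKM in ungrazed plants (log2 ratio 1.01 [0.95 to 1.06]), and Unigene3131 had 35.1 and 0.589 FPKM. Some had no fragment in the tolerant ungrazed library: CL6458.Contig1, named for the tobacco mosaic virus resistance protein N, held 344 and 0 fragments and was at least 116-fold higher, in a cluster at 8.04. CL1364.Contig1 held 1380 and 0 fragments, yet its cluster of 10 contigs had a log2 ratio of 1.34. Receptor-like kinases at the cell surface showed no such lean, with 62 higher and 42 lower of 506, counts whose order turned when the median ratio was set to 0.

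Enzymes that loosen and build the cell wall had more higher than lower calls, though most stayed within 2-fold. Over all alfalfa transcripts 7.49% were higher and 5.03% lower. Pectate lyases, which cleave pectin, were higher in 7 and lower in 0 of 10 contigs, and polygalacturonases in 14 and 1 of 29. Pectate lyase Unigene20627 had 9.69 FPKM in grazed and 0.943 FPKM in ungrazed plants (log2 ratio 3.36 [2.89 to 3.87]). Pectinesterases were even, 10 higher and 8 lower of 66. Xyloglucan endotransglucosylases, which cut and rejoin the chains between cellulose fibrils, were higher in 16 and lower in 0 of 57, while the most abundant, Unigene17688, had 501 and 494 FPKM. Expansins had 6 higher (23.1%) and 3 lower (11.5%) of 26. Cellulose and callose synthases had 7 higher (11.5%) and 0 lower of 61, and the leading one by level, Unigene14626, had 131 and 81.7 FPKM.

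Aquaporins, the water channels, had 6 higher (15.8%) and 0 lower of 38, against 7.49% and 5.03% over all alfalfa transcripts. The tonoplast form CL13280.Contig1 had 62.7 FPKM in grazed and 11.7 FPKM in ungrazed plants (log2 ratio 2.42 [2.22 to 2.63]). Of 316 contigs of cell division and the cytoskeleton 48 were higher (15.2%) and 16 lower (5.06%), 20 and 5 of them kinesins, motors that move along microtubules. Cyclins had 9 higher and 4 lower of 89 and a summed log2 ratio of −0.004, and tubulins had 3 higher and 2 lower of 33. Histones had 3 higher and 5 lower of 66, and they leaned to lower levels in sum (log2 ratio −0.41) though not in their median (0.29). The sum leaned on 1 contig, the histone H3 Unigene3584, with 279.7 FPKM in grazed and 920.4 FPKM in ungrazed plants. All histone contigs together had 2629 and 3251 FPKM. Genes of gibberellin, cytokinin, brassinosteroid and strigolactone had 22 higher (12.2%) and 14 lower (7.73%) of 181 and a median log2 ratio of −0.01. Among them a gibberellin-regulated protein of the small secreted GASA type was higher (CL5960.Contig1, 299 against 32.2 FPKM, log2 ratio 3.22). Auxin genes had 26 higher (11.2%) and 9 lower (3.86%) of 233, and within them SAUR proteins, quickly induced by auxin, had 0 higher and 4 lower of 13. A zinc transporter of the ZIP family (Unigene22073) was higher, with 169 against 46.6 FPKM, and cysteine and serine proteases were higher in 34 and lower in 9 of 195, 15 and 5 of them subtilisins.

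Transcription factors were called in both directions. Over all alfalfa transcripts 7.49% were higher and 5.03% lower. The most abundant WRKY factor, of a family that responds to wounding and pathogens, was lower (Unigene11813, 560.5 against 1176 FPKM, log2 ratio −1.07 [−1.09 to −1.04]), and the list had 7 higher and 6 lower of 109, an order that turned with TMM scaling and with the median ratio set to 0. The most abundant ethylene response factor, Unigene12890, was lower as well (116 against 303 FPKM). Of 8 contigs named bHLH25 4 were higher and 0 lower, and Unigene3743 had 12.2 against 0.904 FPKM. The factor MYB1R1 (Unigene7576) had 8.47 FPKM in grazed and 89.6 FPKM in ungrazed plants (log2 ratio −3.40 [−3.67 to −3.15]).

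Photosystem, antenna and translation genes seldom passed 2-fold. Photosystem and antenna proteins had 4 higher and 0 lower of 93, with a median log2 ratio of 0.32. The leading chlorophyll a/b binding protein CL215.Contig3 had 2428 FPKM in grazed and 1149.7 FPKM in ungrazed plants (log2 ratio 1.08 [1.06 to 1.10]). Rubisco and the Calvin cycle had 1 higher and 3 lower (10.3%) of 29 and a summed log2 ratio of −0.19. The most abundant of them, the Rubisco small subunit CL8539.Contig1, had 2235 and 2294 FPKM. The lower ones were less abundant: small subunit CL6442.Contig2 (−1.76) and CL6442.Contig1 (−1.13), and Rubisco activase CL5149.Contig1 (−1.23). Cytosolic ribosomal proteins had 11 higher and 2 lower of 337 and a median of 0.19. Heat shock proteins and chaperonins had 5 higher and 12 lower of 233, and antioxidant enzymes 8 higher and 10 lower of 242, and both orders turned with TPM. The plot of single contigs by function sets these groups side by side.

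**Figure D4:**
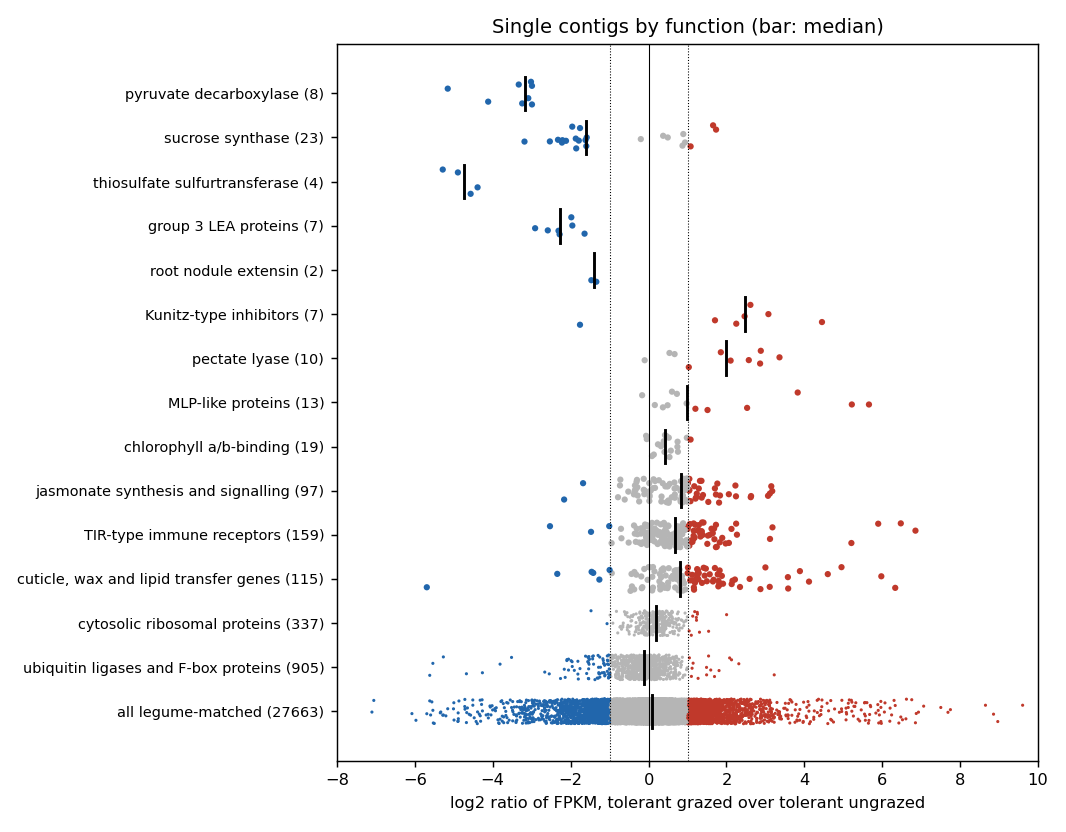
Each point is 1 contig and gives its log2 ratio of FPKM, tolerant grazed over tolerant ungrazed (fragment counts below 3 set to 3), grouped by function with the number of contigs in brackets. Black bars are medians, dotted lines 2-fold, red points higher and blue points lower. Pyruvate decarboxylase (median −3.17), thiosulfate sulfurtransferase (−4.73) and group 3 LEA proteins (−2.28) lie wholly to the left, and Kunitz-type inhibitors (2.47) mostly to the right.

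The largest ratios belonged mainly to contigs almost missing from 1 library. In the grazed library 2 alfalfa transcripts had 3 fragments or fewer, and in the ungrazed library 46. Cluster CL9101, named for ROOT HAIR DEFECTIVE 3, a GTPase that shapes the endoplasmic reticulum, held 9 of the 15 contigs of that name. Its Contig7 had 322 fragments in grazed and 1 in ungrazed plants, its Contig2, the least extreme, had 254 and 10, and the whole cluster had 2289 and 18, whereas the other contigs of that name lay within 2-fold. An elongation factor 1-alpha contig differed from its cluster: CL773.Contig10 had 1196 fragments in grazed and 0 in ungrazed plants, but its cluster had −0.07. In the other direction a proteolipid subunit of the vacuolar proton pump (Unigene50375) had 0 fragments in grazed and 143 in ungrazed plants. Of 857 clusters with several alfalfa contigs and at least 1 of them called, 372 (43.4%) were also past 2-fold as a sum, and 27 held calls in both directions.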

How the data were processed

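RNA-seq reads of 3 whole-plant bulks (tolerant grazed, tolerant ungrazed and intolerant grazed plants) had been assembled de novo with Trinity and clustered with TGICL by the authors, and the transcripts were annotated by similarity searches. The authors counted fragments that aligned uniquely with SOAP, and these deposited fragment counts are raw. The deposited FPKM values divide them by transcript length in kilobases and scale them to the aligned fragments of the library, and recomputed values differed by at most 5e-05. Annotation errors, split contigs and unique alignment all bear on single contigs. The table held no per-sample column left unmapped (0).

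Transcripts with a legume name in both matches and at least 100 fragments over both tolerant libraries were kept. The log2 ratio of FPKM was computed with 0.01 in place of 0, a call meant 2-fold or more, the floor was 3 fragments, and exact Clopper-Pearson 95% intervals came from the fragment counts. Function lists were matched by words in the annotation. The members and lists were chosen with earlier results of these data known, the words of the lists were tightened after the matches were seen, and smaller groups within lists were chosen after their values were seen. Named from each list were the 3 highest and 3 lowest contigs past 2-fold and the one with the most fragments, and over all named functions the 20 highest and 20 lowest. Other contigs named were chosen after their values were seen. Alternatives changed the threshold, the fragment minimum, the scaling, the added constant, the legume rule and the unit (contig or cluster). The script was tested on simulated data. Python 3.11.15, numpy 2.4.6, pandas 2.3.3, scipy 1.17.1, matplotlib 3.10.9, R 4.3.3 and edgeR 4.0.16 (TMM factors alone) were used. No sequences of the transcripts were used here.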

Additional observations from a re-analysis of the deposited data

Results flagged for a closer look

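A pair of transcripts outside the alfalfa set, without a legume name in both matches, took large parts of the libraries. CL4238.Contig2 held 9.78% of the fragments of the tolerant grazed library, against 7.59% of the tolerant ungrazed library, and 1.43% of the intolerant grazed library. CL4238.Contig1 held 1.72% of the tolerant grazed library, against 0.165% of the tolerant ungrazed library, a log2 ratio of 3.38, and 1.82% of the intolerant grazed library. Both entered the library totals behind every FPKM value, and their part in the results was not tested.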

How the results depend on the processing

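The counts of 2072 higher and 1392 lower alfalfa transcripts became 490 and 376 at a 4-fold threshold, 5077 and 2957 with at least 20 fragments, 624 and 598 with at least 500 fragments, and 1098 and 854 where the whole counting interval had to lie past 2-fold. They were 1703 and 1681 with the median ratio set to 0, 1861 and 1533 with TMM scaling, and 2558 and 1154 with TPM. The median log2 ratio of 0.10 was 0.107 with at least 20 fragments, 0.0511 with TMM scaling and 0.209 with TPM. These scalings shift every log2 ratio by −0.10 (median), −0.05 (TMM) and 0.11 (TPM). The 3 lists past 2-fold in summed fragments became 2 with TPM and 2 with the lists as first written, both chosen after seeing the data, and the list lost in each was starch and sucrose metabolism (−0.91 and −0.97). The order of higher and lower calls turned in 7 lists with the median set to 0, in 2 with TMM scaling, in 5 with TPM, in 2 with cluster sums and in 7 with at least 500 fragments. No paired analysis was possible because each condition had 1 library, so no replicate could be left out either. Counting error alone thus leaves 1098 of the 2072 higher and 854 of the 1392 lower calls wholly past 2-fold.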

Other observations

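The third library, from grazed plants of an intolerant population, gives levels to set beside those above, and since no ungrazed intolerant library was analysed here no grazing ratio can be formed for it. Pyruvate decarboxylase summed to 235 FPKM in tolerant grazed, 1057 FPKM in intolerant grazed and 2306 FPKM in tolerant ungrazed plants. Sucrose synthase summed to 1051, 1635 and 3171 FPKM in the same order of libraries. Nitrate reductase 1 (Unigene18045) had 0.704, 9.76 and 93.7 FPKM. TIFY proteins summed to 2278, 1312 and 1223 FPKM, and Kunitz-type inhibitors to 991, 901 and 189 FPKM. In these groups the intolerant grazed level lay between the tolerant ones, and in the following groups it lay outside them. TIR-type immune receptors summed to 1950.3, 717 and 1178 FPKM, and pathogenesis-related protein 1 to 98.2, 40.3 and 587 FPKM. Group 3 LEA proteins summed to 118, 683 and 586 FPKM, and chlorophyll a/b-binding proteins to 4765, 11549.8 and 2846 FPKM. The groups shown here were chosen after their values were seen.

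Of the 46 alfalfa transcripts with 3 fragments or fewer in the tolerant ungrazed library, 32 had more than 10 fragments in the intolerant grazed library and 10 had 3 or fewer there too. No function was named for 4811 alfalfa transcripts, of which 7.92% were higher and 6.42% lower after grazing.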
